A study of Mus musculus with 2 samples.

Results

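Chondromodulin (Cnmd) and tenomodulin (Tnmd), a pair of related membrane glycoproteins of avascular connective tissue, were examined in sorted cells of the mouse embryo together with the tendon regulators Scx and Mkx, the matrix genes Tnc and Prg4, the transcription factor gene Erg and the secreted enzyme gene Enpp2. Members were the probe sets (groups of short probes that report a transcript) whose only annotated gene symbol was that of a listed gene. Of the 8 listed genes, 7 had such a probe set, among 18193 genes with one in all, and they were covered by 10 of 34945 probe sets. Enpp2 had none in the annotation used here and was not analysed here. Cnmd, once named Lect1, carried its present symbol in the annotation.

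Tendons, cartilage and joints of the limb arise from neighbouring mesenchyme. Scleraxis (Scx), a basic helix-loop-helix factor, marks tendon progenitors, mohawk (Mkx) is a homeobox factor of tendon collagen production, and Tnmd is a classical marker of maturing tendon and ligament. Cnmd is the corresponding gene of cartilage and is known to restrain blood vessel growth. Erg and Prg4 (lubricin) are known from the developing joint surface, and Erg is also a regulator of endothelium, while Tnc (tenascin-C) is a matrix glycoprotein of tendon, perichondrium and other condensing mesenchyme.

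The study sorted embryonic cells of the mouse line Col2a1-Venus-Tg, on the genetic background C57Bl/6, by flow cytometry into cells with the label (Venus-positive) and without it (Venus-negative). Both fractions carried the transgene, in which Venus, a modified green fluorescent protein, marks chondrocytes, per the series description, and the name Col2a1 is that of the main cartilage collagen gene. Each fraction was measured once, on 1 Affymetrix Mouse Genome array, so no value below has a replicate error and no test between the fractions was possible. Not given in the sources used here were the age and number of the embryos, any pooling of animals and the sorting gates. The Venus-negative fraction is defined by the absence of the label and is not a purified tendon or joint sample.

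Venus-positive cells carried the signature of cartilage, and markers of other cell types were lower in them. All 14 chondrocyte markers examined were at least 2-fold higher, with a summed signal of 59606 against 4232, and the reporter's own gene Col2a1 (8443 against 606) is among them and checks only the sort. By contrast 10 of 10 skeletal muscle, 9 of 9 measured endothelial, 10 of 10 leukocyte, 5 of 7 erythroid, 7 of 8 epithelial, 5 of 7 neuronal and 6 of 8 fibroblast markers had signals lower by 2-fold or more. Over all measured genes, 2.79% were higher and 11.6% lower by that size. None of the signals on either array was at 0. The Venus-positive array was dimmer, and the median over the 11789 measured genes of the log2 ratio (Venus-positive signal over Venus-negative) was -0.33. A gene was measured when a probe set reached the floor, a signal of 22.5, on at least 1 array, lower signals were set to the floor, and log2 ratios called relative are those after subtraction of this median. Below the floor in Venus-positive cells were 4 skeletal muscle, 3 endothelial, 7 leukocyte, 2 erythroid, 2 epithelial, 3 neuronal and 2 fibroblast markers. In Venus-negative cells 1 chondrocyte marker was below it. The probe sets used for these markers reached the floor only on the array where they were high, so the marker counts rest in part on that rule. In bulk fractions such as these, fewer cells of a type and less RNA per cell cannot be told apart.

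Of the 7 member genes, 2 were at least 2-fold higher in Venus-positive cells, Cnmd and Tnc, and 2 were at least 2-fold lower, Tnmd and Scx. The background was 2.79% of measured genes higher and 11.6% lower by that size. Relative to the median gene, Cnmd and Tnc were again at least 2-fold higher (background 5.06%) and Tnmd alone was at least 2-fold lower (background 6.45%), Scx falling inside 2-fold. The member log2 ratios ran from -2.87 to 5.38 with a median of 0.48, against -0.33 for all measured genes. In ascending order of log2 ratio the genes were Tnmd, Scx, Mkx, Erg, Prg4, Tnc and Cnmd. Erg and Prg4 were 0.16 apart on the log2 scale, less than 0.34, the standard deviation, pooled over genes, among the log2 ratios of a gene's own probe sets. By the brighter probe set of Scx, Scx and Mkx were at least 0.33 apart, a bound set by the floor, and 0.42 apart without it. With the mean over probe sets their order was reversed, with Scx at -0.80 and Mkx at -0.89. With no floor and log2(signal + 16) they were at -0.88 and -0.82. Whether they differ by more than this standard deviation, and in which order, thus depends on the floor and on the probe sets used. The standard deviation holds only the disagreement of probes on these 2 arrays and no error between animals.

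**Figure D1:**
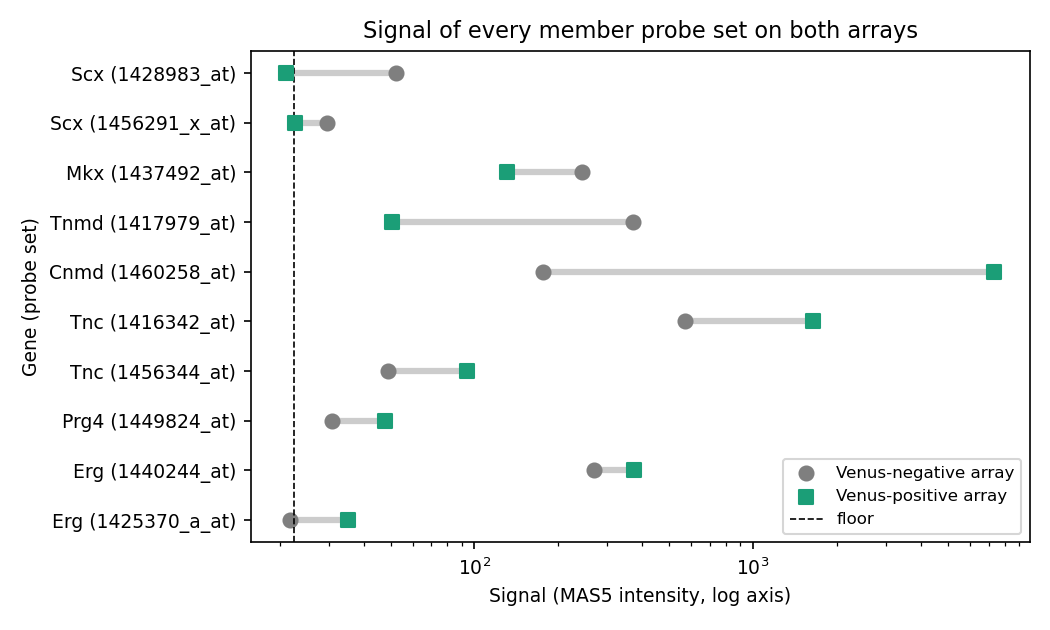
Signal of the 10 member probe sets on the Venus-negative (grey circles) and Venus-positive (green squares) array, on a log axis, with the floor of 22.5 as a dashed line. Cnmd and Tnmd span the widest gaps and in opposite directions, and both probe sets of Scx, that of Prg4 and the dimmer one of Erg lie close to the floor.

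The DNA just before the start of Cnmd and Tnmd is shown because these relatives gave the highest and the lowest ratio among the members. The windows are the 250 bases before the annotated start, on the gene's strand, from RefSeq on build GRCm38.p6. The table of promoters held 4 of the 8 genes, Cnmd, Tnmd, Tnc and Erg. Capitals mark matches to the E-box CANNTG, the motif of helix-loop-helix factors such as Scx, and to ACAAT, a core of the motif of SOX factors, searched on both strands. No marked matches overlap.
Cnmd, chr14:79662184-79662433, minus strand: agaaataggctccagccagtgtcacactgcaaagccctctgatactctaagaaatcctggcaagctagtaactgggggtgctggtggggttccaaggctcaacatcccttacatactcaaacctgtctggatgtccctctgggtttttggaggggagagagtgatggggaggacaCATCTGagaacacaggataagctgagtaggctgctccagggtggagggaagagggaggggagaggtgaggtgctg
Tnmd, chrX:133850758-133851007, plus strand: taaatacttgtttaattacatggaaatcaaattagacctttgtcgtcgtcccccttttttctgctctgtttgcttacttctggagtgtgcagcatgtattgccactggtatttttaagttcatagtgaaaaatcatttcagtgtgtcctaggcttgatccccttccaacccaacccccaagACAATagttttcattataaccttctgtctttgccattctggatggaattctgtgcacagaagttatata
The Cnmd window held 1 E-box (CATCTG, beginning 75 bases before the start) and no ACAAT, and the Tnmd window held 1 ACAAT, beginning 69 bases before the start, and no E-box. Of 32851 windows of the same length, 66.2% held an E-box and 27.7% held ACAAT on either strand, so neither match is rare. The TATA-box letters TATAAA, found in 12.4% of the windows on either strand, were in neither. G and C made up 54.0% of the Cnmd window and 38.4% of the Tnmd window. Letter matches do not show binding, and the absence of a match shows only that these letters are not in this window.

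Cnmd encodes the precursor of a secreted inhibitor of vessel growth made by chondrocytes. Its probe set, 1460258_at, had a signal of 176 in Venus-negative and 7343 in Venus-positive cells. The Venus-positive signal was thus 41.7-fold higher, a relative log2 ratio of 5.71, and the gene ranked 11th from the top among the 11789 measured genes. Its log2 ratio of 5.38 lay inside the range of the 14 chondrocyte markers, 2.24 to 6.31, with 8 of them higher and 6 lower. The signal in the Venus-negative cells was still 7.83 times the floor. With a single probe set, no second reading of Cnmd was available on these arrays.

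Tnmd encodes a type II membrane protein closely related to the Cnmd product and is a marker of differentiated tenocytes. Its probe set, 1417979_at, had a signal of 369 in Venus-negative and 50.6 in Venus-positive cells. Tnmd was 7.29-fold lower in the Venus-positive fraction, a relative log2 ratio of -2.53, and ranked 73rd from the bottom of all measured genes. The Venus-positive signal remained 2.25 times above the floor, so this fold is not a lower bound. The log2 ratios of the pair were 8.25 apart, a 304-fold difference between the folds of these relatives in the same pair of samples.

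Other genes of the BRICHOS family, named for a protein domain that the Cnmd and Tnmd products carry, differed less where they could be compared. Of 7 listed relatives 5 were measured, with a median log2 ratio of 0.14 on floored signals. Itm2a, Itm2b and Itm2c, genes of integral membrane proteins, were above the floor on both arrays, and their log2 ratios ran from -0.95 for Itm2b to 0.31 for Itm2a, above Tnmd and below Cnmd. Itm2b was at 3619 in Venus-negative and 1872 in Venus-positive cells, and its second probe set gave -1.14, over 2-fold lower, while a second one of Itm2a gave 0.90. Gkn3, of the gastrokine group, was at 11.9, below the floor, against 27.9, and the surfactant protein gene Sftpc was at 14.2, also below it, against 24.9, so the ratios of both are lower bounds and the median, which is that of Sftpc, rests on them. Itm2a, Itm2c and Sftpc were named after their values were seen.

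**Figure D2:**
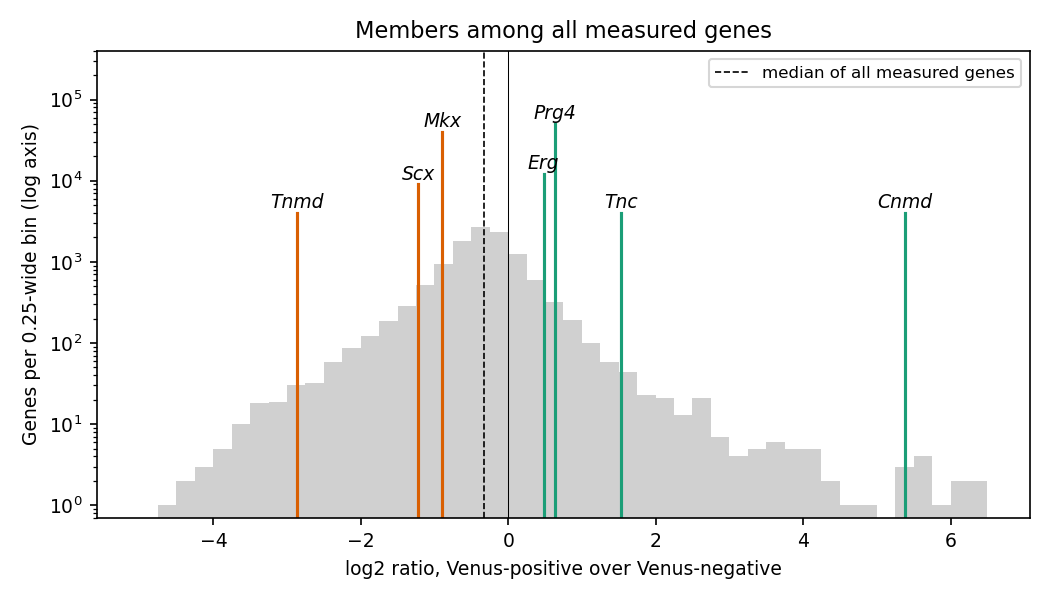
Distribution of the log2 ratio (Venus-positive over Venus-negative) of the 11789 measured genes, in bins with a log count axis, with the 7 members as vertical lines and the median of -0.33 dashed. Line heights carry no value. Cnmd, at 5.38, and Tnmd, at -2.87, lie in opposite tails, and Mkx, Erg and Prg4 lie within 2-fold of equal signal.

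Scx encodes the factor that marks tendon progenitors. Its first probe set, 1428983_at, was at 52.3 in Venus-negative and 21.1 in Venus-positive cells, the latter below the floor. The fold was therefore a lower bound, at least 2.32-fold lower. The second probe set, 1456291_x_at, was at 29.5 against 22.7, 1.30-fold lower and close to the floor on both arrays. Both probe sets were thus lower in Venus-positive cells, but with log2 ratios of -1.22 and -0.38, and the second was level with the median gene, at -0.05 on the relative scale. Probe sets with _x_at in their name can match more than 1 transcript. With the mean of both probe sets the log2 ratio of Scx was -0.80, inside 2-fold.

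Scx acts as a dimer with E proteins, the widely expressed helix-loop-helix factors. Its list held Tcf3, Tcf4, Tcf12 and Tcf15, a relative of Scx, and all 4 were measured. Tcf3 was 2.02-fold lower, at 805 in Venus-negative and 398 in Venus-positive cells, and the other 3 were inside 2-fold. Tcf12, at 3171 against 1704, was next. Probe sets of these 2 genes disagreed in size, with log2 ratios from -1.30 to -0.71 for Tcf3 and from -1.44 to -0.72 for Tcf12. The median log2 ratio of the 4 was -0.78, and on the relative scale none was 2-fold lower. Scx was below all 4 by its brighter probe set, but with the mean over probe sets 2 of the 4 were lower than Scx and 2 higher.

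Mkx, a homeobox gene needed for normal tendon collagen, was read by 1437492_at. Its signal was 244 in Venus-negative and 131 in Venus-positive cells, both well above the floor. Mkx was 1.86-fold lower, just inside 2-fold, and its relative log2 ratio was -0.56. A lower ratio was found in 14.3% of measured genes, so the place of Mkx was not extreme. Of 12 measured genes of its homeobox class (the TALE class, with the Irx, Meis, Pbx and Tgif genes) 4 were at least 2-fold lower (33.3%, background 11.6%) and none higher, with a median log2 ratio of -0.43. On floored signals the largest differences were those of Irx5, 4.14-fold lower (418 against 101), and Meis1, 3.16-fold lower (235 against 74.5). Both are patterning genes of the limb and axis. A second probe set of Meis1 gave a log2 ratio of -0.89. Irx6, at 28.7 against 6.66, and Meis3, at 22.6 against 1.10, were below the floor in Venus-positive cells. Their floored ratios, inside 2-fold, are lower bounds in size, so the count of lower genes depends on the floor. Irx6 and Meis3 were named after their values were seen. Relative to the median gene, 2 of the 12 were 2-fold lower (16.7%, background 6.45%).

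In the wider tendon and ligament list more genes were lower than higher in Venus-positive cells. Of 29 listed genes 28 were measured. Of these, 9 (32.1%, background 11.6%) were lower by 2-fold or more, 1 (3.57%, background 2.79%) was higher and 18 were neither. Relative to the median gene, 7 were lower (25%, background 6.45%) and 1 higher (3.57%, background 5.06%). The median log2 ratio of the list was -0.67. Kera, which encodes the small proteoglycan keratocan, was 22.96-fold lower (894 in Venus-negative, 38.9 in Venus-positive cells), and Dcn, the decorin gene, was 15.9-fold lower (2483 against 156). Those were the only 2 genes of the list with a lower ratio than Tnmd. Thbs4, a thrombospondin gene of tendon named here after its value was seen, followed at 191 against 28.0, 6.82-fold lower. The single higher gene was Fmod (fibromodulin), at 498 against 1005, and it too was named after its value was seen. Its 6 measured probe sets gave log2 ratios from 0.50 to 1.51. Probe sets also disagreed for Col1a2 (-1.91 to -0.43) and Col3a1 (-1.56 to -0.71), both counted as neither. Those of Eya1, counted as lower, ran from -1.61 to -0.50. Mfap5, at 42.7 against 9.39, was below the floor in Venus-positive cells, so its log2 ratio of -0.93 is a lower bound in size. The counts thus depend on the probe sets used and on the floor. Col1a2, Col3a1, Eya1 and Mfap5 were named after their values were seen.

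Markers of skeletal muscle and of fibroblasts were also lower in Venus-positive cells. The 10 skeletal muscle markers had a summed signal of 4668 in Venus-negative and 481 in Venus-positive cells and a median log2 ratio of -2.43. On floored signals Tnmd, at -2.87, had a lower ratio than 5 of them and a higher one than the other 5. Of the 10, 4 were below the floor in Venus-positive cells, so this split depends on the floor. For Myf5, at 49.5 against 5.67 and with a floored log2 ratio of -1.14, the place above Tnmd is set by the floor. The 8 fibroblast markers, which share Col3a1, Dcn and Lum with the tendon list, had a summed signal of 21954 against 10344. Their median log2 ratio was -1.47, and on floored signals 7 of the 8 had a higher ratio than Tnmd. Of the 8, 2 were below the floor in Venus-positive cells, so their ratios are lower bounds in size. For Dpt, at 150 against 11.0 and with a floored log2 ratio of -2.74, the place above Tnmd is again set by the floor. The part of these cells in the values of Tnmd, Scx and Mkx was not tested.

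**Figure D3:**
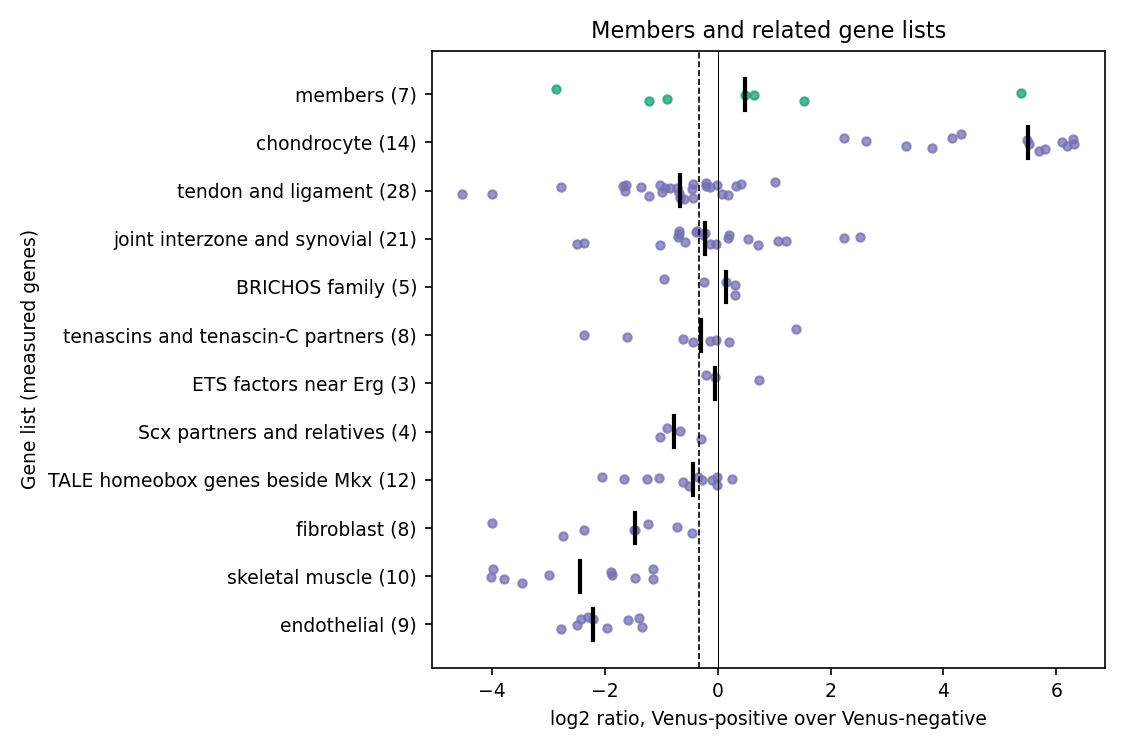
Log2 ratio (Venus-positive over Venus-negative) of each measured gene in the members and in 11 gene lists, with the list median as a black bar and the median of all measured genes dashed. Numbers in brackets are measured genes, vertical scatter within a row carries no value, and ratios of genes below the floor on 1 array are lower bounds in size. Members spread from the range of the muscle and fibroblast markers to that of the chondrocyte markers.

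Tnc was the second member that was higher in Venus-positive cells. Its brighter probe set, 1416342_at, was at 569 in Venus-negative and 1639 in Venus-positive cells, 2.88-fold higher. The dimmer one, 1456344_at, was at 49.1 against 93.7, 1.91-fold higher. Both probe sets lay above 0, at log2 ratios of 1.53 and 0.93, and both exceeded 2-fold relative to the median gene, at 1.86 and 1.26. By its brighter probe set Tnc ranked 165th from the top of all measured genes. It lay above all 28 measured tendon and ligament genes and below all 14 chondrocyte markers. The dimmer probe set lay below the tendon list gene Fmod, whose log2 ratio was 1.01. The log2 ratio of Tnc was 4.39 above that of Tnmd.

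Of the 3 other tenascin genes, Tnr, Tnn and Tnxb, none was measured. Among the 8 measured genes of tenascin receptors and matrix partners 1 (12.5%, background 2.79%) was at least 2-fold higher and 2 (25%, background 11.6%) were lower. Their median log2 ratio was -0.29 (0.04 relative to the median gene), and all 8 lay below the brighter probe set of Tnc. The higher gene was Sdc4, which encodes the cell surface proteoglycan syndecan-4, at 309 in Venus-negative and 809 in Venus-positive cells, and it was named after its value was seen. Its 2 measured probe sets gave log2 ratios of 1.04 and 1.39, both above the dimmer probe set of Tnc, at 0.93. Postn, the periostin gene and also a fibroblast marker, was 5.16-fold lower (3492 against 677). Itga8, an integrin subunit gene, was 3.04-fold lower (443 against 146), with a second probe set at a log2 ratio of -0.98.

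Prg4 encodes lubricin, the lubricating proteoglycan of the joint surface. Its probe set, 1449824_at, was at 30.7 in Venus-negative and 47.8 in Venus-positive cells, which is 1.37 and 2.12 times the floor. Prg4 was 1.56-fold higher, inside 2-fold, and its relative log2 ratio of 0.97 was just under that size. The low signals limit what this value shows.

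Erg, an ETS-domain transcription factor gene of articular chondrocytes and of endothelium, was read by a brighter and a dimmer probe set. The brighter, 1440244_at, was at 269 in Venus-negative and 375 in Venus-positive cells, 1.40-fold higher. The dimmer, 1425370_a_at, was at 35.2 in Venus-positive and at 21.7, under the floor, in Venus-negative cells, a fold of at least 1.56. Neither reached 2-fold, and their relative log2 ratios were 0.81 and 0.98. A higher ratio than that of Erg was found in 7.43% of measured genes.

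Erg stood apart in direction from the endothelial markers. All 9 measured endothelial markers were lower by 2-fold or more in Venus-positive cells, with log2 ratios from -2.77 to -1.34 and a summed signal of 1042 in Venus-negative and 216 in Venus-positive cells. Of the 9, 3 were below the floor in Venus-positive cells. Among the ETS genes nearest to Erg, 3 of 4 were measured. Ets2 was at 933 in Venus-negative and 1553 in Venus-positive cells, a log2 ratio of 0.74, Ets1 was at 549 against 474, and Fli1, the closest relative of Erg and likewise an endothelial factor, was at 301 against 293. None of these 3 was 2-fold higher or lower on the deposited scale, and their median log2 ratio was -0.04 (0.29 relative to the median gene). That median is the value of the brighter probe set of Fli1, and with the mean over probe sets it was 0.30. Relative to the median gene, Ets2 was 2-fold higher, at 1.07.

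The list of joint interzone and synovial genes, the setting of Prg4 and Erg, held genes that differed in both directions. Of 25 listed genes 21 were measured. Of these 4 (19.0%, background 2.79%) were at least 2-fold higher, 3 (14.3%, background 11.6%) were lower and 14 were neither, with a median log2 ratio of -0.22. Of the 4 higher genes, Barx1 and Nog were below the floor in Venus-negative cells. They were measured only through the array where they were high, so the share of higher genes rests in part on that rule. After subtraction of the median, 5 were higher (23.8%, background 5.06%) and 2 lower (9.52%, background 6.45%), and the median of the list changed sign, to 0.11. Col15a1, a basement membrane collagen gene, was 5.74-fold higher (34.5 in Venus-negative, 198 in Venus-positive cells), and Osr1, a zinc finger factor gene of connective tissue, was 5.62-fold lower (466 against 82.9). Gdf5, the growth factor gene that marks the joint interzone, was at 92.3 against 214, 2.32-fold higher. Barx1, a homeobox gene of joint regions, was at 106 in Venus-positive cells and at 13.7, under the floor, in Venus-negative cells, a fold of at least 4.71. Nog was at 47.5 in Venus-positive cells and at 7.23, also under the floor, in Venus-negative cells, a fold of at least 2.11. Gdf5, Barx1 and Nog were named after their values were seen. So was Cd44, a hyaluronan receptor gene, at 389 against 75.5, whose 3 measured probe sets gave log2 ratios from -2.37 to -0.19. Prg4 had a higher ratio than 16 of the 21 genes and a lower one than 5.

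**Figure D4:**
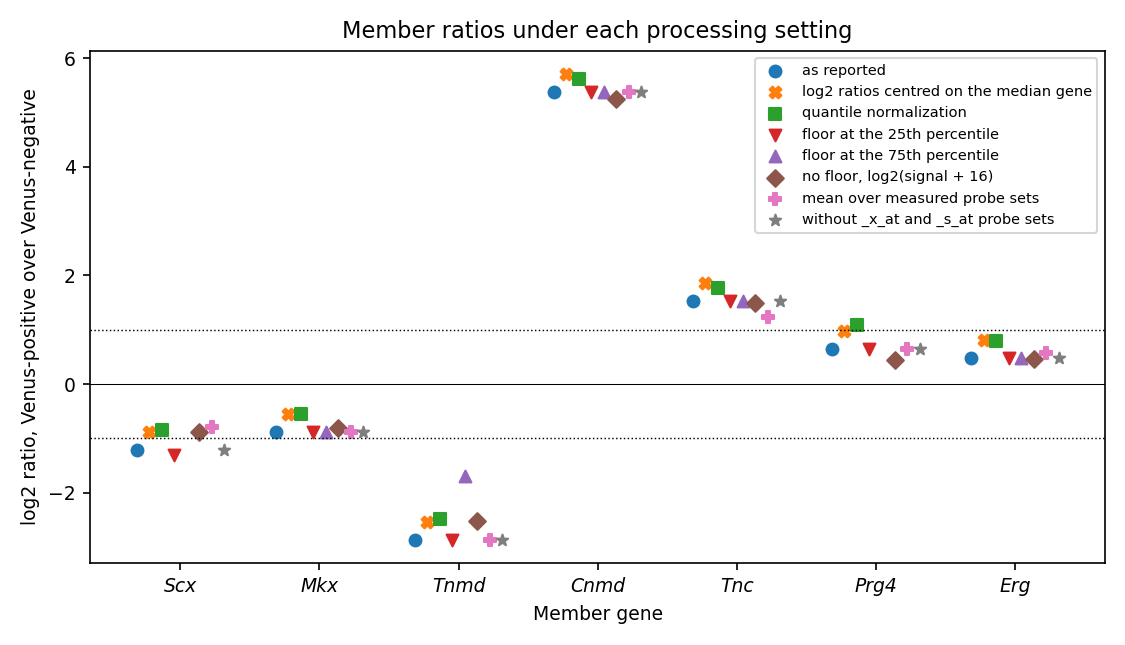
Log2 ratio (Venus-positive over Venus-negative) of the 7 members as reported and under 7 alternative settings, with dotted lines at 2-fold in each direction. Every member kept its sign wherever it was measured, with Cnmd between 5.26 and 5.71, whereas Scx crossed the lower 2-fold line and Prg4 the upper, and neither was measured with the floor at the 75th percentile.

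Across the settings in the plot of member ratios by setting, Tnc stayed between 1.23 and 1.86 and Erg between 0.46 and 0.81. Mkx lay between -0.89 and -0.56 and stayed inside 2-fold. Tnmd lay between -2.87 and -1.69, the smallest size being a lower bound under a raised floor, and was at least 2-fold lower in every setting run.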

How the data were processed

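RNA of 2 sorted fractions was hybridised to 1 array each, from 100 ng of total RNA, per the labels' protocols. The deposited values are linear intensity signals per probe set, made by the authors with MAS5, as the submitters' processing notes state. Its version, scaling target and detection calls were not given in the sources used here. Means over all probe sets, trimmed by 2% at each end, were 133 (Venus-negative) and 109 (Venus-positive), so the arrays were not level by this measure. Of 45037 non-control probe sets, 34945 had 1 symbol, 932 several and 9160 none, and only the first kind was used. Of these, 34741 matched RefSeq by gene identifier. The floor was the median signal over both arrays without controls. Each gene was represented by its probe set of highest mean log2 signal. Ratios used Python 3.11.15 with numpy 2.4.6 and pandas 2.3.3, and the procedure was checked on simulated data. The number of arrays limits the precision. Besides members and markers, the 2 genes of each related list with the largest absolute log2 ratio were named. Members and lists were chosen with earlier results of these data known. Alternatives were centring, quantile normalization, 2 other floors, no floor, probe set means and leaving out _x_at and _s_at probe sets.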

Additional observations from a re-analysis of the deposited data

How the results depend on the processing

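With 1 array per fraction no replicate could be left out. No paired analysis was possible because each group has 1 sample. Values were counted as kept if they shifted by under 0.34 on the log2 scale, or counts by at most 1.5 times. Of 194 values under 7 alternatives, 159 were kept by this rule and 35 were not. Centring subtracts the same -0.33 from every log2 ratio, smaller in size than 0.34, so by this rule it could shift none of them. Probe set means cannot change a gene with 1 measured probe set. The number of kept values was thus in part fixed in advance and does not measure how firm the results are. No member gene and no value past 2-fold changed sign, but 9 list medians of at most 0.29 in size did: BRICHOS under the 75th-percentile floor and, at -0.05, without _x_at and _s_at probe sets; joint genes at 0.11 when centred and 0.016 with quantile normalization; tenascin partners at 0.043 when centred and also with quantile normalization; and ETS factors at 0.29 when centred, 0.25 with quantile normalization and 0.30 with probe set means. With ratios centred on the median gene, 1 member was at least 2-fold lower in place of 2, and of all genes 597 were higher and 760 lower. With quantile normalization the log2 ratios were -0.85 for Scx, -2.50 for Tnmd and 1.09 for Prg4, 3 members in place of 2 were at least 2-fold higher and 1 lower, the medians were 0.069 for tenascin partners, -1.92 for epithelial and -1.30 for neuronal markers, and 595 genes were higher and 765 lower. Under a floor at the 25th percentile, medians were -0.83 for the TALE class, -3.06 for muscle, -3.61 for leukocyte and -2.11 for neuronal markers, and 672 genes were higher and 2534 lower. With the floor at the 75th percentile Scx and Prg4 were not measured, Tnmd was at -1.69, 1 of 5 measured members was 2-fold lower, and 181 genes were higher and 475 lower. The medians there were -0.25 for the BRICHOS family, -0.16 for the lysophosphatidic acid axis, 3.79 for chondrocyte, -1.50 for muscle, -0.35 for endothelial, -0.90 for leukocyte, -0.84 for epithelial and -0.97 for neuronal markers. With no floor and log2(signal + 16), 1 member was 2-fold lower and the medians were 4.95 for chondrocyte and -1.35 for neuronal markers. With the mean over probe sets Scx was at -0.80 and 1 member was 2-fold lower. Signals near the floor limit Scx and Prg4.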

Other observations

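The product of Enpp2, autotaxin, makes lysophosphatidic acid, a lipid signal read by the receptors of the Lpar genes and broken down by the phosphatases of the Plpp genes. Of 14 listed genes of this axis and of related Enpp enzymes, 11 were measured. Of these 2 (18.2%, background 2.79%) were at least 2-fold higher in Venus-positive cells, 4 (36.4%, background 11.6%) were lower and 5 were neither. Relative to the median gene, 2 were higher (18.2%, background 5.06%) and 3 lower (27.3%, background 6.45%). The median log2 ratio of these genes was -0.54. The receptor gene Lpar1 was 4.04-fold lower, at 929 in Venus-negative and 230 in Venus-positive cells, and its other measured probe sets gave log2 ratios up to -1.09. Enpp3, a gene of the same enzyme family as Enpp2, was at 65.6 against 6.21, the latter below the floor, and was at least 2.91-fold lower. Of the 2 higher genes, Plpp2 was at 102 in Venus-negative and 217 in Venus-positive cells and Enpp6 was at 12.2, below the floor, against 52.3. Both were named after their values were seen. The probe sets used for Enpp3 and Enpp6 reached the floor only on the array where they were high. The shares of lower and of higher genes thus rest in part on that rule.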
